A study of Caenorhabditis elegans with 8 samples.

Results

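The food by daf-16 interaction is the change in a worm gene's expression on hns mutant Escherichia coli in wild-type worms minus the same change in daf-16 mutants. It was computed on log2(FPKM + 1), where FPKM is fragments per kilobase of transcript scaled to the library's fragments, for genes above 0 in all 8 libraries with a mean of at least 5 FPKM. The deposited table has 41560 rows. This rule was met by 10057 of them (24.2%), and 10056 were tested. A value of 0 means that hns food shifted a gene equally in both genotypes, a positive value that the shift was more upward in wild type, and a negative value that it was more upward in daf-16.

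The worms were whole young adult Caenorhabditis elegans grown at 20 °C on nematode growth medium plates. The 4 groups, with 2 libraries each, were the wild-type strain N2 on E. coli BW25113, N2 on the hns mutant of BW25113, the strain daf-16(mgDf50) on BW25113, and daf-16(mgDf50) on the hns mutant. BW25113 is the parent of a widely used E. coli gene-knockout collection, and all groups ate that strain or its hns derivative. Loss of daf-16 was thus represented by 1 allele, present in every tissue. Separate cultures for the libraries of a group are not stated in the labels, so p-values reflect only how far these libraries spread, and that spread may be technical.

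DAF-16 is the FOXO transcription factor of C. elegans. Signalling through the insulin-like receptor DAF-2 leads to its phosphorylation and keeps it in the cytoplasm, and when signalling falls it enters the nucleus and acts on genes for stress resistance, immunity, metabolism and longevity. H-NS, the product of hns, is a DNA-binding protein that silences many genes of the bacterium. The interaction asks whether the worm's transcript response to these bacteria differs when DAF-16 is missing.

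The rule selected genes with tight replicates. Replicates correlated with Pearson's r of 0.988 to 0.992 across the genes meeting it, on the log2 scale, and the median residual SD was 0.102, against 0.242 for the 4508 other genes tested. The median SE of the interaction was 0.145, against 0.337 for the others. Of the 10057 genes 9880 (98.2%) matched a reference annotation, 9664 of them as protein coding. Just inside the limit on the mean were F48F7.5, Y75B8A.28 and F58E6.11, each within rounding of 5 FPKM, and just outside were pept-3, which also rounds to 5 FPKM, with T10B10.8 at 4.99 and ltd-1 at 4.99. A value above 0 could still be very small, since 24 of the genes had a library under 1 FPKM and 2 had a library under 0.01. The gene left untested was ocr-1, a TRPV channel gene, which stood at 0.114 to 0.334 FPKM in 7 libraries and at 866 in replicate 2 of daf-16 on hns food. The gene daf-16 itself stood at 77.1 and 77.4 FPKM in BW25113-fed wild type, 75.6 and 69.9 in hns-fed wild type, 19.2 and 18.3 in BW25113-fed daf-16 and 17.7 and 15.8 in hns-fed daf-16.

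By limma with Benjamini-Hochberg adjustment over all 14564 genes tested, 0 of the 10056 genes had an interaction with an adjusted p under 0.05. Over all genes tested 14 did (0.0961%; 6 positive, 0.0412%, and 8 negative, 0.0549%), and each of those was at 0 in every library of at least 1 group, so that the rule left all 14 out. The lowest adjusted p among the 10056 was 0.129, for the small non-coding RNA gene C44H4.10. That lowest limma value depended on the setting. It was 0.861 when only the described genes were fitted, 0.790 with only genes above 0.01 FPKM in every library and 0.0831 with robust estimation. When 1 library was left out, 3 genes passed without BW25113-fed daf-16 replicate 2, 1 passed without BW25113-fed wild type replicate 1, and 0 passed in the 6 other cases. Without adjustment 289 genes (2.87%) had p under 0.05, a smaller share than the fraction of 0.05 expected if no gene had an interaction. Of these genes 228 had a positive and 61 a negative interaction. Over all genes tested 539 (3.70%) had p under 0.05, 422 positive and 117 negative. Among the 4508 other genes tested 250 (5.55%) did, 194 positive and 56 negative, so both sets leaned positive in this setting. For the described genes the split depended on the scaling. It was 192 and 140 with quantile normalization, and turned to 93 and 448 when each library was divided by its FPKM sum. Division by the sum moved the median interaction of all genes tested by -0.0906, and 1 gene, F20D12.12, held between 2.34% and 10.5% of a library's FPKM sum. With 1 library left out the positive count was 159 to 346 and the negative count 52 to 206. The negative count was 139 and 206 without replicate 1 or 2 of BW25113-fed daf-16, 133 without hns-fed daf-16 replicate 1 and 101 without hns-fed wild type replicate 2, which also gave the positive count of 346.

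The size of the interaction was small for most of these genes. The median was -0.02, and the 5th and 95th percentiles were -0.24 and 0.45. The 95% interval lay between -1 and 1, which is a 2-fold difference between the food responses on this scale, for 8741 genes (86.9%). For those genes a difference over 2-fold falls outside the interval. Across the 10056 genes the food effects in wild type and in daf-16, which share no library, correlated with a Pearson's r of 0.649 and had one sign for 76.7% of genes. Genes are not independent replicates, and all were measured in the same libraries.

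**Figure D1:**
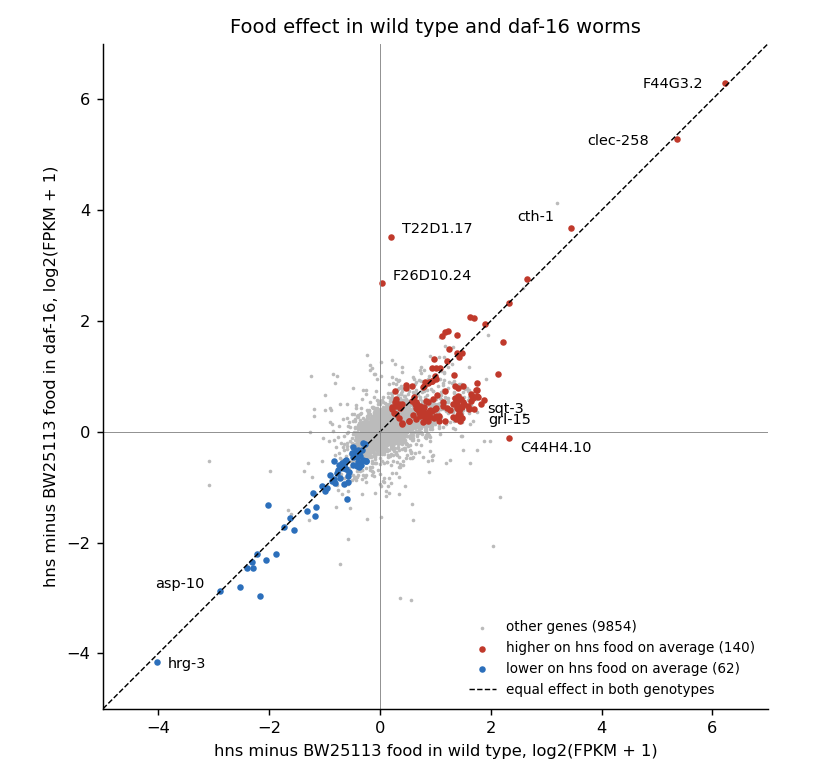
Effect of hns food in daf-16 worms (vertical axis) against the effect in wild-type worms (horizontal axis), both as log2(FPKM + 1) on hns food minus BW25113 food, 1 point per gene for the 10056 genes tested. Genes called for the food effect averaged over both genotypes are red (140 higher) or blue (62 lower). The dashed line marks equal effects, and points below it have a positive interaction. The 62 lower genes follow the line, while many of the 140 higher genes lie below it.

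Genes that responded to hns food were taken from the food effect averaged over both genotypes. In this balanced design that contrast is computed independently of the interaction, although both use the same estimate of a gene's spread. Of the 10056 genes 202 passed it, against a background of 1.76% of all genes tested. The 140 higher on hns food compare with a background of 1.24%, and the 62 lower with 0.515%. Taken singly, the food effect passed for 100 genes in wild type (75 higher, 25 lower, against a background of 0.872%, or 0.645% higher and 0.227% lower) and for 44 in daf-16 (21 higher, 23 lower, against 0.405%, or 0.199% higher and 0.206% lower). The higher and lower calls in wild type were 44 and 25 with quantile normalization and 34 and 21 after division by the FPKM sum, and the averaged calls were 90 and 66 with quantile normalization. Counts also rose under other settings: in wild type they were 173 and 39 when only the described genes were fitted and 133 and 28 with robust estimation, and the averaged calls were 249 and 83 with the described genes alone. Without a filter they were 20 and 17 in wild type and 54 and 37 for the average. With any 1 library left out the counts were 18 to 62 in wild type, 16 to 34 in daf-16 and 56 to 127 for the average. The median interaction lay near 0 for the lower genes and above 0 for the higher genes. For the 62 lower genes the median food effect was -0.68 in wild type and -0.73 in daf-16, with a median interaction of 0.04, and 35 interactions above 0 and 27 below. For the 140 higher genes the median food effect was 1.02 in wild type and 0.52 in daf-16, with a median interaction of 0.36, and 100 interactions above 0 and 40 below. In neither set was any single interaction past the threshold by limma. Unadjusted, 72 of the 140 and 3 of the 62 had p under 0.05. Whether the 2 sets differ was not tested.

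Heme transport was the list with the most members among the lower genes. C. elegans cannot make heme and takes it from its bacterial food: HRG-1 and HRG-4 are importers of the intestine, MRP-5 exports heme from the intestine, HRG-3 is a secreted heme carrier, HRG-2 is a membrane protein that aids heme use in the epidermis, and ASP-10, also known as HRG-7, is a secreted aspartic protease-like signal of heme status. Of 7 genes of this list that met the rule, 6 were called lower on hns food in each genotype by limma. The backgrounds were 0.227% in wild type and 0.206% in daf-16. The list's median food effect was -2.21 in wild type and -2.32 in daf-16. Its median interaction was 0.04, against -0.02 over all 10056 genes, with 4 members above 0 and 3 below.

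The heme carrier gene hrg-3 stood at 501 and 486 FPKM in BW25113-fed wild type, 29.8 and 29.1 in hns-fed wild type, 822 and 794 in BW25113-fed daf-16 and 48.05 and 40.9 in hns-fed daf-16. Both BW25113 groups lay above both hns groups with no overlap, and daf-16 worms had more hrg-3 on either food. It fell 16.7-fold in wild type and 18.2-fold in daf-16, and its interaction of 0.14 ± 0.12 (SE) had a 95% interval of -0.14 to 0.42. The protease-like gene asp-10 stood at 680.1 and 681 FPKM in BW25113-fed wild type, 95.3 and 87.1 in hns-fed wild type, 795 and 782 in BW25113-fed daf-16 and 101 and 112 in hns-fed daf-16. Its fold decrease was 7.46-fold in wild type and 7.41-fold in daf-16, with an interaction of -0.01 ± 0.10 and an interval of -0.26 to 0.25. The importer gene hrg-1 fell from 225 and 190.4 to 39.9 and 41.8 FPKM in wild type and from 225 and 206 to 45.4 and 37.5 FPKM in daf-16, and hrg-4 from 181 and 195 to 35.7 and 44.05 FPKM in wild type and from 205 and 212 to 38.3 and 51.9 FPKM in daf-16. Their interactions were 0.04 ± 0.17 and -0.02 ± 0.22. The exporter gene mrp-5 fell less, 2.104-fold in wild type and 1.997-fold in daf-16, and its interaction was -0.08 ± 0.12 with an interval of -0.36 to 0.21. The gene hrg-2 was the least precise, at 9.35 and 6.65 FPKM in BW25113-fed wild type, 0.761 and 1.60 in hns-fed wild type, 11.28 and 9.27 in BW25113-fed daf-16 and 1.18 and 1.31 in hns-fed daf-16, and its interaction of 0.26 ± 0.35 allowed -0.57 to 1.099.

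Some digestive protease genes fell, and others did not. Of 21 lysosomal cysteine and aspartic protease genes that met the rule, 4 were called lower and 1 higher in each genotype. The backgrounds over all genes tested were 0.227% lower and 0.645% higher in wild type, and 0.206% lower and 0.199% higher in daf-16. The list's median food effect was -0.13 in wild type and -0.10 in daf-16. The cathepsin B-like genes cpr-4, cpr-5 and W07B8.1 (cpr-8) encode cysteine proteases of the gut. The gene cpr-4 stood at 467 and 409 FPKM in BW25113-fed wild type, 93.8 and 71.9 in hns-fed wild type, 380.3 and 395 in BW25113-fed daf-16 and 71.6 and 67.4 in hns-fed daf-16, an interaction of 0.07 ± 0.19. For cpr-5 the values were 286 and 314 FPKM in BW25113-fed wild type, 77.9 and 55.3 in hns-fed wild type, 314 and 401 in BW25113-fed daf-16 and 38.1 and 52.2 in hns-fed daf-16. Its fall was 4.501-fold in wild type and 7.91-fold in daf-16, so its interaction of 0.79 ± 0.31 was the highest of the 62 lower genes (limma unadjusted p = 0.0411, adjusted p = 1.00). W07B8.1 fell 3.97-fold in wild type and 4.96-fold in daf-16, with an interaction of 0.31 ± 0.21. For gsto-1, an omega-class glutathione transferase gene, the fall was 6.10-fold in wild type and 7.58-fold in daf-16 (interaction 0.27 ± 0.17). The vitamin B12-responsive gene acdh-1, which encodes an acyl-CoA dehydrogenase of the propionate shunt, was lower by a similar amount in both genotypes, at 1810.0 and 1884 FPKM in BW25113-fed wild type, 1132 and 1229.9 in hns-fed wild type, 1785 and 1677 in BW25113-fed daf-16 and 1111 and 1165 in hns-fed daf-16, and its interaction was -0.04 ± 0.11 with an interval of -0.31 to 0.23. Of 15 propionate shunt genes 4 were among the 62 (background 0.515%), with interactions of -0.04 to -0.11.

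The fatty acid-binding protein gene lbp-3 is one of the 3 lower genes with an unadjusted p under 0.05. It stood at 268 and 282 FPKM in BW25113-fed wild type, 179.8 and 170.1 in hns-fed wild type, 379 and 365 in BW25113-fed daf-16 and 191 and 198 in hns-fed daf-16. On BW25113 food daf-16 worms lay above wild type, and on hns food the genotypes were closer. Its interaction of 0.29 ± 0.08 (limma unadjusted p = 0.0141, adjusted p = 1.00) kept between 0.25 and 0.33 when any 1 library was left out. The lowest interaction of the 62 was that of acdh-2, an acyl-CoA dehydrogenase gene, at -0.71.

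By the effect averaged over both genotypes, the 5 largest increases were those of F44G3.2, clec-258, cth-1, H20E11.2 and asp-14, and their interactions were between -0.22 and 0.09. In daf-16 alone T22D1.17 rose more than asp-14, by 3.52, with an interaction of -3.32. F44G3.2, named argk-1 in the reference and encoding an arginine kinase, stood at 0.209 and 0.289 FPKM in BW25113-fed wild type, 100.3 and 85.996 in hns-fed wild type, 0.597 and 0.699 in BW25113-fed daf-16 and 138 and 120.1 in hns-fed daf-16. It was under 1 FPKM in all 4 libraries on BW25113 food. Its food effect was 6.23 ± 0.12 in wild type and 6.30 ± 0.12 in daf-16, and its interaction -0.07 ± 0.17 with an interval of -0.48 to 0.35. This value depended on the pseudocount because of the low BW25113 values, and became 0.63 with a pseudocount of 0.1. The gene cth-1 encodes cystathionine gamma-lyase, the enzyme that releases cysteine from cystathionine, and stood at 13.7 and 14.8 FPKM in BW25113-fed wild type, 157 and 174 in hns-fed wild type, 13.4 and 17.4 in BW25113-fed daf-16 and 216 and 198 in hns-fed daf-16. The increase was 11.7-fold in wild type and 13.4-fold in daf-16, and its interaction of -0.22 ± 0.18 had an interval of -0.67 to 0.22. For the C-type lectin clec-258 the rise was from 0.250 and 0.122 to 56.5 and 40.5 FPKM in wild type and from 0.504 and 0.235 to 50.1 and 53.9 FPKM in daf-16, an interaction of 0.09 ± 0.27 (interval -0.56 to 0.74). This lectin gene too was under 1 FPKM in all 4 libraries on BW25113 food. Over the settings that kept every library its interaction ranged from -0.06 to 0.57. The aspartic protease gene asp-14 rose from 32.8 and 33.4 to 169 and 171 FPKM in wild type and from 24.99 and 32.2 to 152 and 140.2 FPKM in daf-16, with an interaction of 0.00 ± 0.16. The food effects of asp-14 were thus 2.32 in both genotypes.

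Some strong increases had a negative interaction. F22B8.7 stood at 14.7 and 16.7 FPKM in BW25113-fed wild type, 50.9 and 50.5 in hns-fed wild type, 11.76 and 14.2 in BW25113-fed daf-16 and 57.6 and 56.9 in hns-fed daf-16. It rose 3.23-fold in wild type and 4.41-fold in daf-16, and its interaction was -0.43 ± 0.15 (limma unadjusted p = 0.0257, adjusted p = 1.00). The glutathione transferase gene gst-38 rose from 5.42 and 5.40 to 14.4 and 17.5 FPKM in wild type and from 7.95 and 6.42 to 24.02 and 29.2 FPKM in daf-16, with an interaction of -0.36 ± 0.22 (interval -0.88 to 0.17). Of 53 C-type lectins that met the rule, 5 were among the 140 higher genes (background 1.24%). Of these 5, 4 had interactions between -0.25 and -0.01 and clec-258 was above 0.

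**Figure D2:**
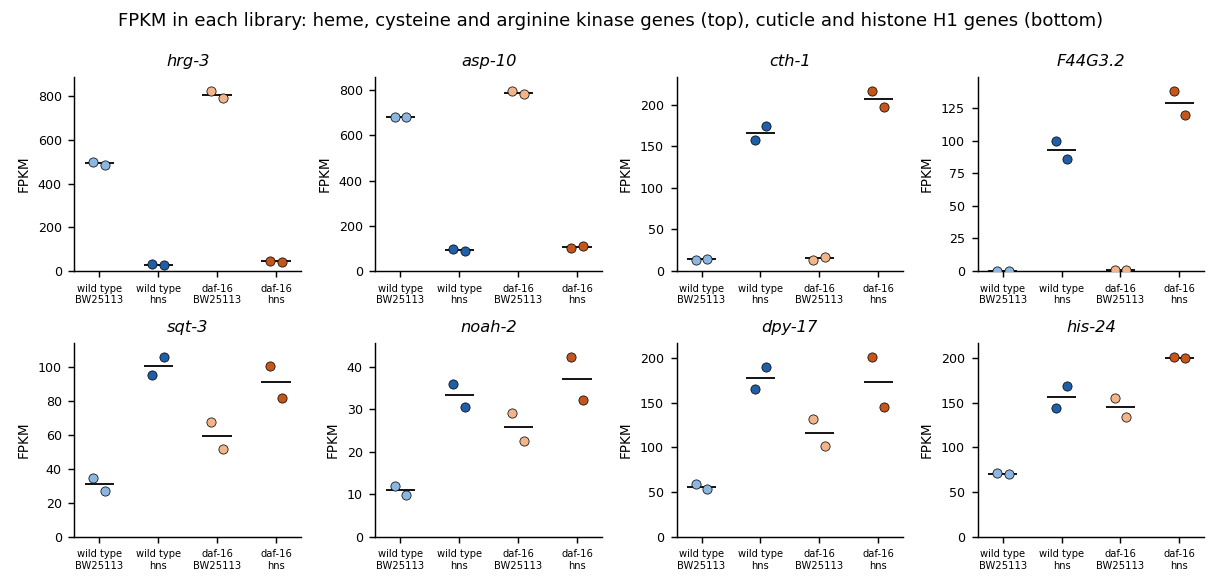
FPKM in each of the 8 libraries (vertical axes, linear, from 0) for 8 genes, by genotype and food (horizontal axes), with 1 point per library and a line at the mean of 2. For hrg-3, asp-10, cth-1 and F44G3.2 (top) the 2 genotypes shift alike on hns food. For sqt-3, noah-2, dpy-17 and his-24 (bottom) wild type on BW25113 food lies below the 3 other groups.

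The genes known as DAF-16 targets are where a loss of the food response in the mutant would be looked for. Of 44 rows of the list of DAF-16-activated genes 29 met the rule. Their median interaction was -0.03 (13 above 0, 16 below), and their median food effect was 0.02 in wild type and 0.09 in daf-16. Their median genotype effect, wild type minus daf-16, was 0.13 on BW25113 food and 0.22 on hns food. Averaged over both foods, 3 of them were called higher in wild type (background 0.268%) and 1 higher in daf-16 (background 0.563%). Most of the list was thus not called for the loss of DAF-16 itself, which limits what its median interaction can show. By limma 2 rose on hns food in wild type and 0 in daf-16, against 0.645% and 0.199% of all genes tested, and 0 interactions passed. Of 24 rows of DAF-16-repressed genes 16 met the rule, with a median interaction of 0.01, 8 on either side of 0, and median food effects of 0.33 in wild type and 0.44 in daf-16. In this list 2 rose in wild type and 4 in daf-16, against the same backgrounds, and again 0 interactions passed. Among the 4 were pud-3 and pud-4, neither called in wild type. Both were higher in wild type than in daf-16, against the list's label. The median genotype effect of the repressed list was -0.31 on BW25113 food and -0.15 on hns food. Among the 26 members of the insulin-like signalling pathway the median interaction was -0.04. The readouts sod-3, hsp-16.2 and ftn-1 did not meet the rule.

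The lysozyme gene lys-7, a DAF-16-activated immune gene, stood at 69.8 and 90.1 FPKM in BW25113-fed wild type, 178 and 181 in hns-fed wild type, 32.97 and 39.2 in BW25113-fed daf-16 and 56.0 and 66.3 in hns-fed daf-16. All wild-type libraries lay above all daf-16 libraries, and within each genotype both hns libraries lay above both BW25113 libraries. The food effect was 1.169 ± 0.15 in wild type and 0.75 ± 0.15 in daf-16, passing in wild type (limma adjusted p = 0.0327) and not in the mutant (adjusted p = 0.215). The test of the difference itself, an interaction of 0.42 ± 0.21 with an interval of -0.09 to 0.93, did not pass (limma unadjusted p = 0.0883, adjusted p = 1.00). The peroxisomal catalase gene ctl-2 stood at 18.5 and 21.5 FPKM in BW25113-fed wild type, 33.4 and 37.6 in hns-fed wild type, 21.7 and 20.5 in BW25113-fed daf-16 and 40.9 and 35.8 in hns-fed daf-16. Its interaction was -0.03 ± 0.16 (interval -0.41 to 0.35), and its level differed little between the genotypes on either food. The gene overlaps Y54G11A.7 on the opposite strand in the reference annotation, and how strand was handled is not given in the sources used here. Y54G11A.7 was lower on hns food, with food effects of -1.54 in wild type and -1.76 in daf-16.

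The metallothionein gene mtl-1, a common readout of DAF-16, could not be placed. It stood at 44.1 and 30.6 FPKM in BW25113-fed wild type, 120.4 and 31.3 in hns-fed wild type, 8.54 and 4.15 in BW25113-fed daf-16 and 10.18 and 4.20 in hns-fed daf-16. Replicate 1 of wild type on hns food lay far above its partner, which lay within the range of wild type on BW25113 food. The interaction of 0.61 ± 0.97 therefore had an interval of -1.75 to 2.96, and it ranged from -0.35 to 1.56 when 1 library was left out. The interactions of dod-3 and dod-24, named as genes downstream of DAF-16, were 0.28 ± 0.57 and 0.12 ± 0.21. The small heat shock protein gene sip-1 stood at 1653 and 1719 FPKM in BW25113-fed wild type, 1429.5 and 1572 in hns-fed wild type, 1102 and 1156 in BW25113-fed daf-16 and 1127 and 1163 in hns-fed daf-16, an interaction of -0.19 ± 0.11. The intestinal peptide transporter gene pept-1 had an interaction of 0.42 ± 0.15 (limma unadjusted p = 0.0331, adjusted p = 1.00), with food effects of 0.02 ± 0.11 in wild type and -0.40 ± 0.11 in daf-16.

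Of the 16 DAF-16-repressed genes 6 were among the 140 that were higher on hns food on average (background 1.24%), pud-3 and pud-4 included. The infection-response gene F35E12.5 (irg-5) stood at 35.3 and 44.4 FPKM in BW25113-fed wild type, 105 and 107 in hns-fed wild type, 116 and 90.5 in BW25113-fed daf-16 and 255 and 296 in hns-fed daf-16. The mutant was higher on both foods and hns food was higher in both genotypes. Its fold increase was 2.66-fold in wild type and 2.67-fold in daf-16, giving an interaction of -0.02 ± 0.22 (interval -0.55 to 0.51). The genes pud-3 and pud-4 were kept in this list, although they are named for proteins that are upregulated in daf-2 mutants. In these libraries both went against the list's label. Averaged over both foods, wild type was higher by 1.28 for pud-3 and 1.35 for pud-4 on the log2 scale. The gene pud-3 stood at 621 and 895 FPKM in BW25113-fed wild type and 1759 and 1493 in hns-fed wild type. In daf-16 the values of pud-3 were 256 and 239 on BW25113 food and 832 and 818 on hns food. Its food effect was 1.12 ± 0.17 in wild type and 1.73 ± 0.17 in daf-16, an interaction of -0.61 ± 0.24 (limma unadjusted p = 0.0444, adjusted p = 1.00). The stearoyl-CoA desaturase gene fat-7 had an interaction of -0.47 ± 0.17, from 34.7 and 37.1 to 38.3 and 49.1 FPKM in wild type and from 35.6 and 36.2 to 63.0 and 58.3 FPKM in daf-16. The largest interaction of this list was that of dao-2, at 1.18 ± 0.34, whose values were 82.4 and 61.2 FPKM in BW25113-fed wild type, 232 and 195 in hns-fed wild type, 204 and 145 in BW25113-fed daf-16 and 265 and 192 in hns-fed daf-16. For dao-2 wild type on BW25113 food lay below every other library.

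**Figure D3:**
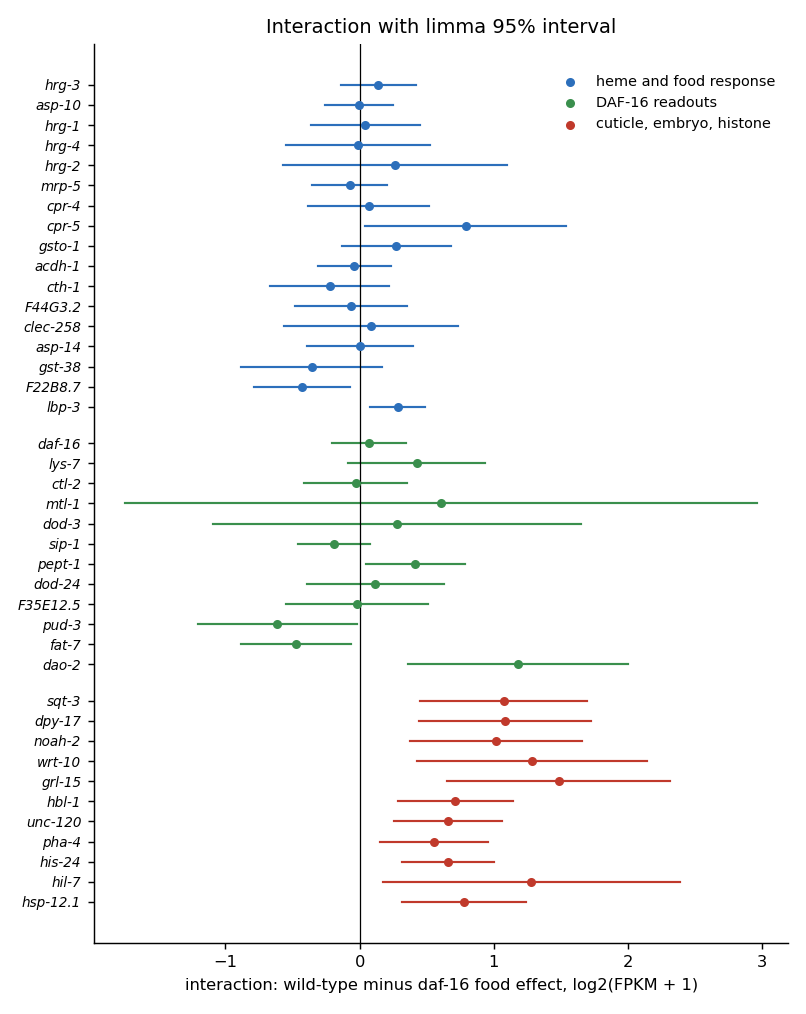
Interaction (horizontal axis, wild-type minus daf-16 food effect on log2(FPKM + 1)) with its limma 95% interval for 40 named genes in 3 groups. The heme and food-response genes (blue) lie near 0, with cpr-5, lbp-3 and F22B8.7 as genes whose interval leaves out 0. DAF-16 readouts (green) lie on both sides of 0 with mtl-1 the least precise, and the cuticle, embryo and histone genes shown (red) lie above 0, picked from lists of which only the 8 cuticle markers have no member below 0.

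The genotype difference of a gene was not always of the same size on each food. Genes were taken here by the genotype effect averaged over both foods. This contrast is likewise independent of the interaction. Of the 10056 genes 87 passed it (background 0.831%), 27 higher in wild type (background 0.268%) and 60 higher in daf-16 (background 0.563%). The counts were 35 and 40 with quantile normalization and 42 and 43 after division by the FPKM sum, and 24 to 70 in all with any 1 library left out. The genotype difference had one sign on both foods for all 27, which include daf-16 itself, and all 60. Genes chosen for a large average over both foods are nearly bound to agree in sign, so this agreement is no separate evidence. The median interaction was -0.05 for the 27 and -0.01 for the 60, and 0 passed by limma, while 3 and 11 had an unadjusted p under 0.05. The C-type lectin gene clec-222 was higher in wild type, at 51.9 and 55.7 FPKM in BW25113-fed wild type, 72.4 and 65.1 in hns-fed wild type, 27.1 and 24.3 in BW25113-fed daf-16 and 28.4 and 29.5 in hns-fed daf-16. The phosphatase gene scpl-1 was higher in daf-16, at 75.3 and 76.0 FPKM in BW25113-fed wild type, 73.7 and 70.8 in hns-fed wild type, 132 and 132 in BW25113-fed daf-16 and 123 and 128 in hns-fed daf-16, and its interaction of 0.01 ± 0.07 had an interval of -0.18 to 0.19. The calcium-binding protein gene cex-1 was 2.85-fold higher in daf-16 on BW25113 food and 2.93-fold higher on hns food, with an interaction of -0.05 ± 0.22. Y68A4A.13 had the lowest interaction of the 27, -0.94 ± 0.29, from 25.04 and 36.4 to 39.3 and 34.4 FPKM in wild type and from 3.87 and 5.05 to 10.6 and 12.7 FPKM in daf-16. The genotypes did not overlap on either food, the foods overlapped in wild type, and in daf-16 hns food was higher.

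Cuticle and epidermal markers were the list with the most members among the 140 higher genes, and all of these had a positive interaction. The list of hypodermis and cuticle markers holds 14 rows, of which 8 met the rule: the collagen genes sqt-3, dpy-7, dpy-10 and dpy-17, the apical matrix genes noah-1 and noah-2, the protease inhibitor gene mlt-11, which is needed for moulting, and the hedgehog-related gene wrt-10. The list was used because of earlier results on these libraries, so its direction in wild type is not independent evidence. The same holds for its interaction, which contains the wild-type food effect. All 8 were among the 140 genes higher on hns food (background 1.24%). All 8 had a positive interaction, from 0.89 to 1.29 with a median of 1.04, against -0.02 over all 10056 genes. Each had an unadjusted limma p under 0.05 and none passed after adjustment over all genes. After division by the FPKM sum 6 of the 8 had an unadjusted limma p under 0.05. The median food effect of the list was 1.59 in wild type and 0.51 in daf-16, with 6 called higher in wild type (background 0.645%) and 0 in the mutant (background 0.199%), and the difference itself passed for 0 of the 8. The median ranged from 0.81 to 1.23 when 1 library was left out and from 0.95 to 1.04 over the 3 other scalings.

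The values show which group stood apart. The collagen gene sqt-3 stood at 34.8 and 26.8 FPKM in BW25113-fed wild type, 95.05 and 105 in hns-fed wild type, 67.4 and 51.7 in BW25113-fed daf-16 and 100.2 and 81.6 in hns-fed daf-16. The collagen gene dpy-17 stood at 59.1 and 52.9 FPKM in BW25113-fed wild type, 165 and 189.6 in hns-fed wild type, 131 and 101 in BW25113-fed daf-16 and 200.5 and 145 in hns-fed daf-16, and noah-2 at 11.97 and 9.90 FPKM in BW25113-fed wild type, 36.1 and 30.6 in hns-fed wild type, 29.3 and 22.4 in BW25113-fed daf-16 and 42.2 and 32.3 in hns-fed daf-16. In all 3 genes both libraries of wild type on BW25113 food lay below every other library, daf-16 on BW25113 food lay next, and the hns groups of the 2 genotypes overlapped at the top. The interactions were 1.07 ± 0.26 for sqt-3, 1.082 ± 0.27 for dpy-17 and 1.01 ± 0.27 for noah-2, with unadjusted limma p of 0.00517, 0.00590 and 0.00797 (adjusted p = 1.00 for each). For wrt-10 the values were 11.1198 and 8.30 FPKM in BW25113-fed wild type, 40.7 and 27.5 in hns-fed wild type, 30.5 and 23.2 in BW25113-fed daf-16 and 41.2 and 31.1 in hns-fed daf-16, an interaction of 1.29 ± 0.36. The median genotype effect of the 8 genes, wild type minus daf-16, was -0.996 on BW25113 food and -0.01 on hns food. Summed over the 8, the markers reached 149 and 128 FPKM in BW25113-fed wild type, 442 and 437 in hns-fed wild type, 331 and 249 in BW25113-fed daf-16 and 485 and 366 in hns-fed daf-16. In RNA from whole worms, more cells of a type and more RNA per cell cannot be told apart.

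The other 6 cuticle markers were low in every library. The collagen genes sqt-1, sqt-2, rol-6, dpy-13, bli-1 and bli-2, which are not members, had means of 0.546 to 2.07 FPKM. The wider list of cuticle collagens, 56 of 157 rows, had a median interaction of 0.02 with 29 above 0 and 27 below, and 4 with an unadjusted p under 0.05, all positive. Its median was -0.34 without replicate 2 and 0.24 without replicate 1 of wild type on hns food. The hedgehog-related genes (25 of 86 rows) had a median of 0.10, and the groundhog-like gene grl-15 the highest value among them, 1.48 ± 0.34, from 4.79 and 4.18 FPKM in BW25113-fed wild type, 14.9 and 18.5 in hns-fed wild type, 14.6 and 9.25 in BW25113-fed daf-16 and 15.8 and 11.6 in hns-fed daf-16.

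Genes for embryonic patterning leaned the same way with smaller values. Young adults can carry embryos, and such transcription factor genes act in the embryo, several also in later tissues. Of 28 rows 18 met the rule, with a median interaction of 0.31, 14 above 0, and 5 with an unadjusted p under 0.05, all positive. Without 1 library the median lay between 0.18 and 0.42. The hunchback-like gene hbl-1 stood at 5.35 and 5.60 FPKM in BW25113-fed wild type, 11.54 and 12.5 in hns-fed wild type, 5.37 and 5.53 in BW25113-fed daf-16 and 7.65 and 6.22 in hns-fed daf-16. Here wild type on hns food, not wild type on BW25113 food, was the group apart, and the interaction was 0.71 ± 0.18. The muscle regulator gene unc-120 had 12.58 and 11.48 FPKM in BW25113-fed wild type, 21.3 and 22.5 in hns-fed wild type, 17.1 and 20.1 in BW25113-fed daf-16 and 22.4 and 19.2 in hns-fed daf-16, an interaction of 0.66 ± 0.17. The pharynx regulator gene pha-4 gave 0.55 ± 0.17 and the Hox gene ceh-13 gave 0.45. The most abundant members moved little: pal-1 had -0.16, skn-1 -0.11 and lin-26 -0.01. The early endoderm genes end-1 and end-3 and the genes med-1 and med-2, which did not meet the rule, stayed under 3 FPKM in every library, and the summed level of the 18 members was 741 to 805 FPKM in wild type and 715 to 801 in daf-16. Their part in the cuticle marker result was not tested.

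Some linker histone genes were lowest in wild type on BW25113 food, and these were picked from the histone list after their values were seen. The histone H1 gene his-24 stood at 70.9 and 70.2 FPKM in BW25113-fed wild type, 144 and 169 in hns-fed wild type, 156 and 134 in BW25113-fed daf-16 and 201 and 200.3 in hns-fed daf-16. Wild type on BW25113 food lay below all other libraries, and the food effect was 1.13 ± 0.10 in wild type and 0.47 ± 0.10 in daf-16. The interaction was 0.66 ± 0.14 (interval 0.32 to 1.002, limma unadjusted p = 0.00295, adjusted p = 0.783). The H1-like gene hil-7 had 91.2 and 52.8 FPKM in BW25113-fed wild type, 215 and 214 in hns-fed wild type, 161 and 124 in BW25113-fed daf-16 and 232 and 138 in hns-fed daf-16, an interaction of 1.28 ± 0.46, whereas hil-4 had -0.12 and hil-5 -0.10. Over 23 histone genes that met the rule the median was 0.04, 12 above 0 and 11 below, with 4 positive and 1 negative interaction at an unadjusted p under 0.05. The small heat shock protein gene hsp-12.1 stood at 30.5 and 32.3 FPKM in BW25113-fed wild type, 63.4 and 69.4 in hns-fed wild type, 54.5 and 41.0 in BW25113-fed daf-16 and 59.3 and 55.9 in hns-fed daf-16, an interaction of 0.78 ± 0.19, while the 20 cytosolic heat shock genes had a median of 0.01.

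The low level of wild type on BW25113 food was the commonest form among the positive interactions. For each of the 228 genes with a positive interaction and an unadjusted p under 0.05, the group mean farthest from the 3 others was taken. It was wild type on BW25113 food, low, for 154 genes (67.5%), wild type on hns food, high, for 41 (17.98%), daf-16 on BW25113 food, high, for 17, and daf-16 on hns food, low, for 16. For the 61 negative interactions no group dominated, with 19 set apart by a low wild type on hns food, 15 by a low daf-16 on BW25113 food, 14 by a high daf-16 on hns food and 13 by a high wild type on BW25113 food. These groups were picked by the values they describe, so the counts are a description, and the shares over all genes were not counted. The set of 228 genes itself was 192 with quantile normalization and 93 after division by the FPKM sum.

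Other cell content markers are given for comparison. Sperm genes had a median interaction of 0.45, with 20 of 22 above 0, and food effects of -0.18 in wild type and -0.76 in daf-16. Their summed level was 142 and 210 FPKM in BW25113-fed wild type, 133 and 183 in hns-fed wild type, 228 and 310 in BW25113-fed daf-16 and 194 and 142 in hns-fed daf-16. The group apart was thus daf-16 on BW25113 food. Several encode major sperm proteins and are nearly identical copies, so that the share of fragments given to each is uncertain, as for msp-36 (1.03 ± 0.36), and the median was 0.16 without BW25113-fed wild type replicate 1 and 0.76 without replicate 1 of wild type on hns food. Markers of neurons (median 0.22, 9 of 10 above 0) turned to -0.13 without replicate 1 of wild type on hns food, and markers of muscle (0.19, 10 of 11 above 0) to -0.03 without BW25113-fed daf-16 replicate 2. Insulin-like peptide genes had 0.17, or between 0.08 and 0.52 without 1 library. All 14 oocyte and eggshell genes and all 6 vitellogenin genes lay below 0, with medians of -0.12 and -0.13, and 0 of them had an unadjusted p under 0.05. The oocyte and eggshell median was 0.003 without BW25113-fed daf-16 replicate 1 and -0.23 without replicate 2. For the vitellogenins it lay between -0.25 and -0.07 without 1 library. In the 14 germline genes the median was -0.07, and it turned to 0.04 without BW25113-fed daf-16 replicate 1. The summed level of the oocyte and eggshell genes was 9543 to 11157 FPKM in wild type and 9512 to 10895 in daf-16.

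**Figure D4:**
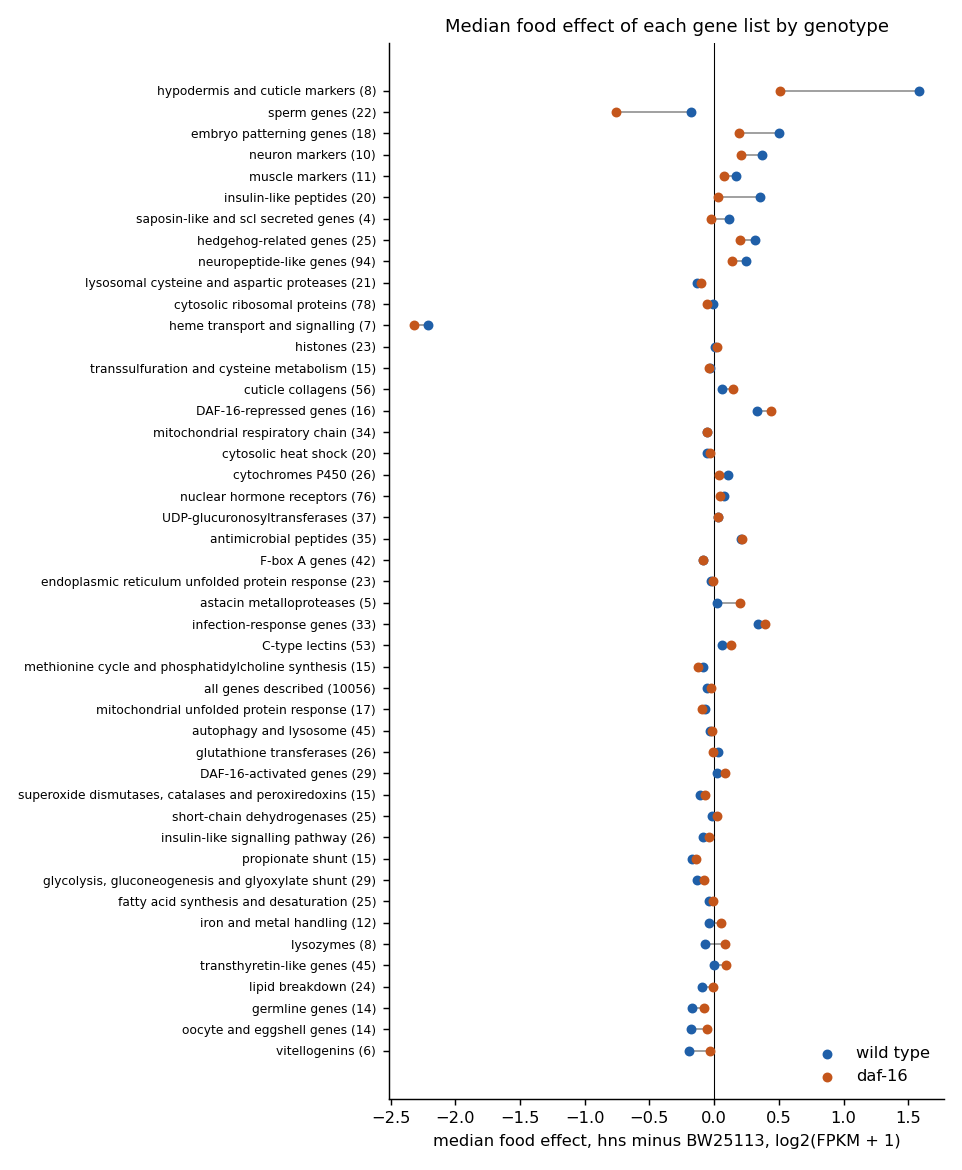
Median effect of hns food (horizontal axis, log2(FPKM + 1), hns minus BW25113 food) in wild type (blue) and daf-16 (orange) for each of 45 gene lists and for all 10056 genes, ordered by the median interaction, with the number of genes in brackets. The distance between the points is large for hypodermis and cuticle markers (1.59 and 0.51) and sperm genes (-0.18 and -0.76), and the heme genes lie far to the left with both points close together (-2.21 and -2.32).

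Most of the remaining lists had medians close to that of all genes. An exception was the list of saposin-like and scl secreted genes, at 0.14 over 4 genes. Detoxification lists were at -0.02 for 26 glutathione transferases, 0.01 for 26 cytochromes P450 and 0.00 for 37 UDP-glucuronosyltransferases. Immune lists were at -0.01 for 33 infection-response genes, -0.01 for 53 C-type lectins, 0.00 for 35 antimicrobial peptide genes and -0.06 for 8 lysozymes. The propionate shunt (-0.05), the respiratory chain (0.01), ribosomal proteins (0.05), the mitochondrial unfolded protein response (-0.02) and that of the endoplasmic reticulum (0.00), autophagy and lysosome (-0.02), lipid breakdown (-0.07) and iron and metal handling (-0.05) lay within 0.1 of 0. By limma 0 genes passed in any of the 45 lists. These medians were not tested against each other.

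Genes with the lowest interaction p were named whatever their function, 12 in each direction above a minimum size of the interaction. Short transcripts were common among them. Of the 22 that matched the reference, 15 had a longest transcript under 600 nt, against 14.03% of all matched genes that met the rule, and 6 were under 300 nt, against 2.43%. FPKM of short transcripts rest on few possible fragments, and gene models that overlap share reads that cannot be told apart without strand.

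The lowest p belonged to C44H4.10, a non-coding RNA gene with a transcript of 223 nt. It stood at 0.936 and 1.74 FPKM in BW25113-fed wild type, 11.17 and 10.05 in hns-fed wild type, 6.46 and 8.99 in BW25113-fed daf-16 and 6.77 and 7.27 in hns-fed daf-16, with wild type on BW25113 food below all other libraries. Its interaction was 2.44 ± 0.31 (interval 1.70 to 3.18; limma unadjusted p = 0.00016, adjusted p = 0.129). It overlaps 2 coding genes in the reference. C44H4.4, on the same strand, had an interaction of 0.06 ± 0.13. The other, sym-1 on the opposite strand, which encodes a secreted leucine-rich repeat protein of the embryo, stood at 5.34 and 4.55 FPKM in BW25113-fed wild type, 20.7 and 12.12 in hns-fed wild type, 15.5 and 12.5 in BW25113-fed daf-16 and 22.02 and 17.6 in hns-fed daf-16 and had an interaction of 1.04 ± 0.36. For sym-1 too, wild type on BW25113 food lay lowest.

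The next were coding genes with smaller and more precise values. Y57A10A.23, named txdc-12.1 in the reference, stood at 61.1 and 62.1 FPKM in BW25113-fed wild type, 129 and 116 in hns-fed wild type, 111 and 105 in BW25113-fed daf-16 and 135 and 121 in hns-fed daf-16. Its interaction was 0.73 ± 0.12 (interval 0.45 to 1.02, limma unadjusted p = 0.000596, adjusted p = 0.347), and stayed between 0.65 and 0.81 with any 1 library left out. The calponin-family gene cpn-2 gave 15.7 and 14.3 FPKM in BW25113-fed wild type, 25.2 and 27.7 in hns-fed wild type, 21.7 and 22.3 in BW25113-fed daf-16 and 25.1 and 24.6 in hns-fed daf-16, an interaction of 0.61 ± 0.12. The homeobox gene ceh-27 gave 0.87 ± 0.18, and W04A8.4 gave 1.13 ± 0.23, from 16.112 and 15.2 FPKM in BW25113-fed wild type, 42.0 and 46.2 in hns-fed wild type, 46.7 and 35.7 in BW25113-fed daf-16 and 57.4 and 44.7 in hns-fed daf-16. In all 4 of these coding genes wild type on BW25113 food was lowest. A different form was seen in F52H2.3 (1.43 ± 0.27), with 8.095 and 8.88 FPKM in BW25113-fed wild type, 13.98 and 10.1 in hns-fed wild type, 10.4 and 13.7 in BW25113-fed daf-16 and 5.88 and 5.26 in hns-fed daf-16, where daf-16 on hns food was lowest, and in the fungus-induced peptide-related gene fipr-11 (1.18 ± 0.24), with 8.16 and 5.90 FPKM in BW25113-fed wild type, 7.21 and 7.97 in hns-fed wild type, 17.9 and 14.8 in BW25113-fed daf-16 and 7.38 and 7.04 in hns-fed daf-16, where daf-16 on BW25113 food was highest. F37H8.7 (1.77 ± 0.31) and B0035.21 (1.44 ± 0.26) changed in opposite directions in the 2 genotypes, with food effects of 1.2003 ± 0.22 in wild type and -0.57 ± 0.22 in daf-16 for F37H8.7 and of 0.93 ± 0.18 in wild type and -0.51 ± 0.18 in daf-16 for B0035.21. None of these 4 food effects passed.

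Small nucleolar RNA genes made up 4 of the 12 with the lowest p among negative interactions. Their share of all genes that met the rule was not counted. Of the 9880 such genes matched to the reference, 216 were not protein coding. Small nucleolar RNAs guide the chemical modification of ribosomal and other RNAs, and many lie within introns of host genes. The library reagents were for mRNA, and whether these FPKM come from the small RNAs or from host transcripts was not tested. ZK185.9 stood at 49.3 and 36.7 FPKM in BW25113-fed wild type, 19.2 and 22.9 in hns-fed wild type, 49.6 and 69.97 in BW25113-fed daf-16 and 92.8 and 95.5 in hns-fed daf-16. On hns food it was at its lowest in wild type and at its highest in daf-16, an interaction of -1.66 ± 0.28 (limma unadjusted p = 0.000939, adjusted p = 0.476). F26D10.24 stood at 80.1 and 115 FPKM in BW25113-fed wild type, 99.98 and 96.9 in hns-fed wild type, 24.3 and 48.95 in BW25113-fed daf-16 and 244 and 210.1 in hns-fed daf-16, with an interaction of -2.64 ± 0.45 and a food effect that passed in daf-16 (limma adjusted p = 0.0355). It overlaps the heat shock cognate gene hsp-1 on the same strand, whose interaction was -0.02 ± 0.18. B0412.6 stood at 40.7 and 52.7 FPKM in BW25113-fed wild type, 19.2 and 37.1 in hns-fed wild type, 55.8 and 56.2 in BW25113-fed daf-16 and 102 and 126 in hns-fed daf-16, an interaction of -1.78 ± 0.42, and overlaps the ribosomal protein gene rps-29 on the same strand, whose interaction was -0.01 ± 0.22. The fourth, Y24D9A.9, had an interaction of -1.096 ± 0.31.

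T22D1.17 had the largest negative interaction. This short coding gene stood at 2.86 and 5.30 FPKM in BW25113-fed wild type, 2.84 and 7.42 in hns-fed wild type, 4.69 and 2.74 in BW25113-fed daf-16 and 53.9 and 50.1 in hns-fed daf-16. Only daf-16 on hns food was high, in both its libraries, and the other 6 libraries lay between 2.74 and 7.42. The food effect was 0.21 ± 0.42 in wild type and 3.52 ± 0.42 in daf-16, passing in daf-16 (limma adjusted p = 0.0355). The interaction of -3.32 ± 0.60 had an interval of -4.77 to -1.87, wholly below -1, and its p was 0.00125 unadjusted and 0.534 adjusted by limma. It was one of 4 genes whose interval lay wholly beyond 1 in size. It overlaps T22D1.8 on the opposite strand, which stayed at or under 0.32 FPKM in every library. The nematode-specific peptide gene nspc-3 stood at 10.6 and 9.04 FPKM in BW25113-fed wild type, 7.22 and 7.99 in hns-fed wild type, 6.19 and 7.33 in BW25113-fed daf-16 and 11.06 and 10.3 in hns-fed daf-16 (-0.92 ± 0.18) and the neuropeptide-like gene nlp-28 at 601 and 644 FPKM in BW25113-fed wild type, 527 and 561 in hns-fed wild type, 387 and 480.0 in BW25113-fed daf-16 and 579 and 554 in hns-fed daf-16 (-0.59 ± 0.15). The gene dct-8, named for control by DAF-16, stood at 11.7 and 17.4 FPKM in BW25113-fed wild type, 13.996 and 10.3 in hns-fed wild type, 2.305 and 3.38 in BW25113-fed daf-16 and 11.6 and 6.81 in hns-fed daf-16, an interaction of -1.62 ± 0.44. For dct-8 daf-16 on BW25113 food was the low group.

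**Figure D5:**
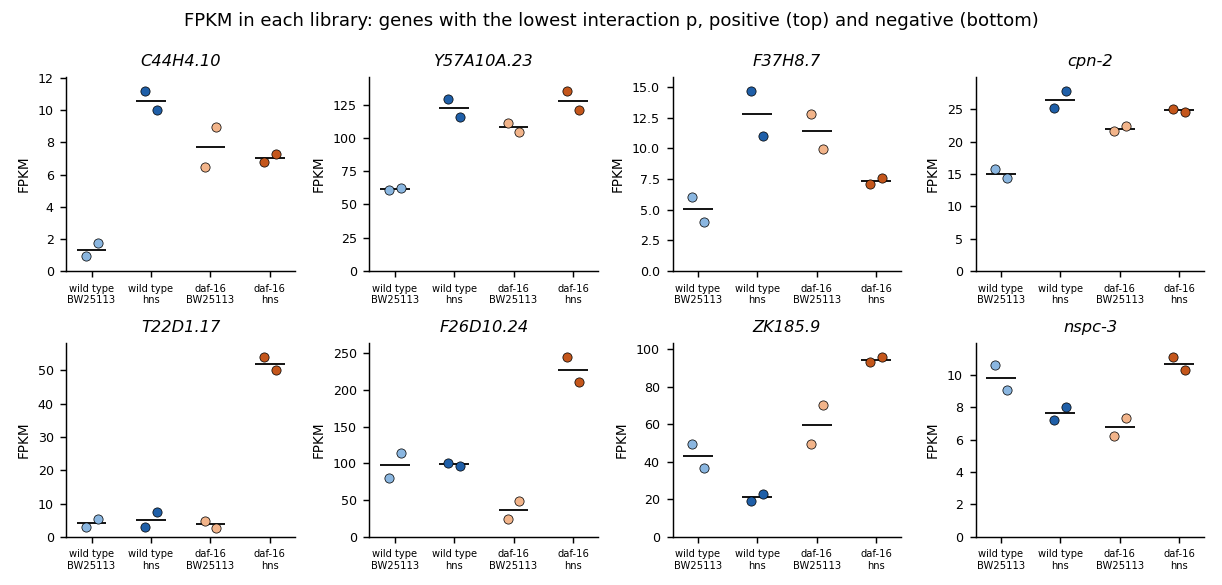
FPKM in each of the 8 libraries (vertical axes, linear, from 0) for 4 genes with the lowest interaction p among positive values (top) and 4 among negative values (bottom), by genotype and food (horizontal axes), with 1 point per library and a line at the mean of 2. Wild type on BW25113 food has the lowest mean in each gene of the top row, and daf-16 on hns food the highest mean in each gene of the bottom row.

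The largest interactions in size were mostly imprecise. Of the 10056 genes 130 had an interaction of at least 1 in size, 99 positive and 31 negative. Their median SE was 0.493, 71 had an unadjusted p under 0.05, and 41 of the 126 with a known length (32.5%) had a transcript under 300 nt. Several rested on 1 library. F26E4.14, which overlaps the cytochrome c oxidase gene cox-5B, stood at 194 and 4.83 FPKM in the libraries of daf-16 on BW25113 food and at 2.45 to 5.48 in the others, an interaction of 3.36 ± 2.04. Without the second of those libraries its value was 5.89, and limma then gave an adjusted p of 0.0199. F36A4.5 stood at 4.79 and 230.0 in BW25113-fed wild type and at 2.49 to 7.69 elsewhere (-2.13 ± 2.14). For D1054.23, the gene with the highest interaction (4.099 ± 1.61), the values were 4.02 and 1.65e-43 FPKM in BW25113-fed wild type, 4.02 and 15.8 in hns-fed wild type, 15.3 and 3.81 in BW25113-fed daf-16 and 3.49 and 3.74e-20 in hns-fed daf-16, so that 2 of its libraries were in effect at 0. The neuropeptide receptor-family gene npr-13 (3.61 ± 1.83) and the F-box gene fbxa-55 (3.34 ± 1.42) also had replicates far apart, with 1.166 and 30.5 FPKM for npr-13 and 6.49 and 47.3 FPKM for fbxa-55 in wild type on BW25113 food.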

How the data were processed

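RNA from whole young adult worms was measured in 8 libraries, 2 for each of 4 groups. Per the labels' protocols, RNA was purified on RNeasy columns, and Lexogen SENSE mRNA reagents were used for the libraries. The authors deposited FPKM per gene in 1 table for all libraries. TopHat2 2.0.11, Cufflinks 2.2.1 and build ce10 are named in the submitters' processing notes, whereas neither the gene models nor any use of strand is given in the sources used here. No read counts were analysed here, so the depth is unknown and no count test was run. A library's FPKM sum was 2128460 to 2508480, and 13191 to 14099 genes reached 1 FPKM.

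FPKM were transformed to log2(FPKM + 1), which understates changes of low genes. The 14564 genes that reached 1 FPKM in 2 or more libraries were fitted by limma 3.58.1 under R 4.3.3 as 4 group means under a mean-variance trend, with 4 residual and 2.32 prior degrees of freedom. P-values are two-sided, with Benjamini-Hochberg adjustment over all 14564 genes, with an adjusted p under 0.05 as the threshold, and only genes above 0 in every library with a mean of at least 5 FPKM are described. The model was tested on simulated data. The genes described and the 45 gene lists were chosen with earlier results of these data known.

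Genes were named by a rule with 8 parts, which took 201 genes, not all of which are described. It takes daf-16, any gene past the threshold in the interaction, the 12 in each direction with the lowest interaction p at a size of at least 0.585, and the 5 in each direction with the largest interaction. It also takes the 10 in each direction with the lowest p for the averaged food effect and for the averaged genotype effect, up to 3 per list by lowest interaction p, and 14 readouts listed by name. Other genes named in the text were chosen after their values were seen, as members of a list, as extremes of a set or as genes that overlap a named gene. Names, classes, transcript lengths and overlaps came from the WBcel235 annotation, which differs from the ce10 build of the files, and neither coordinates nor sequences are shown.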

Additional observations from a re-analysis of the deposited data

How the results depend on the processing

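The absence of interaction calls among the 10056 genes held in 17 of 20 alternatives, of which the limit to transcripts of at least 300 nt and the limit to genes above 0.01 FPKM in every library were chosen after seeing the data. With the replicate number as a block 1 gene passed (wrt-10, adjusted p = 0.0445). Without 1 library the count was between 0 and 3: F36A4.5 passed without BW25113-fed wild type replicate 1, and C35A5.11, F26E4.14 and Y38H6C.24 without BW25113-fed daf-16 replicate 2. Where 1 library is left out, the lone library of that group is assumed to vary like the others. The count of 14 over all genes tested was 31 without a filter, 23 without the mean-variance trend, 13 to 24 without 1 library, 0 when only the described genes were fitted, 1 with transcripts of at least 300 nt and 0 with genes above 0.01 FPKM, the last 3 settings testing fewer genes.

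The calls for food and genotype moved more. For the food effect in wild type the count of 100 was 37 without a filter, 212 when only the described genes were fitted, 55 after division by the FPKM sum, 360 with the replicate block, 161 with robust estimation, 18 to 62 without 1 library, 228 with transcripts of at least 300 nt and 224 with genes above 0.01 FPKM. In daf-16 the count of 44 was 29 without a filter and 16 to 34 without 1 library, and 49 with the block. For the averaged food effect the count of 202 was 91 without a filter, 332 with the described genes alone, 583 with the block, 56 to 127 without 1 library, 348 with transcripts of at least 300 nt and 342 above 0.01 FPKM. For the averaged genotype effect the count of 87 was 48 without a filter, 164 with the described genes alone, 204 with the block, 51 without the trend, 24 to 70 without 1 library, 150 with transcripts of at least 300 nt and 153 above 0.01 FPKM. The cause of these shifts was not tested. The replicate numbers share only a number in the labels. The differences of replicate 1 minus replicate 2 correlated between groups at 0.237 to 0.453 across genes.

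Interactions near 0 changed sign in 9 of the 70 genes described when a setting other than the libraries was changed. After division by the FPKM sum the value was -0.028 for daf-16, -0.058 for hrg-1, -0.095 for asp-14, -0.033 for cpr-4 and -0.094 for scpl-1. With quantile normalization it was 0.027 for hrg-4, -0.00541 for asp-14 and -0.054 for clec-258, and with median-of-ratios scaling -0.0058 for asp-14 and -0.00088 for scpl-1. With a pseudocount of 5 it was 0.0011 for asp-10 and -0.056 for clec-258, and with a pseudocount of 0.1 it was -0.0047 for asp-14 and 0.63 for F44G3.2. Without 1 library the value ranged from -0.10 to 0.019 for acdh-1, -0.084 to 0.071 for asp-10, -0.17 to 0.18 for asp-14, -0.22 to 0.13 for cex-1, -0.15 to 0.32 for clec-258, -0.12 to 0.26 for cpr-4, -0.13 to 0.073 for ctl-2 and -0.011 to 0.14 for daf-16. It ranged from -0.13 to 0.37 for dod-24, -0.38 to 0.94 for dod-3, -0.20 to 0.16 for F35E12.5, -4.79 to 0.53 for F36A4.5, -0.18 to 0.043 for F44G3.2 and -0.092 to 0.18 for hrg-1. It ranged from -0.017 to 0.55 for hrg-2, -0.23 to 0.20 for hrg-4, -0.15 to 0.0019 for mrp-5, -0.35 to 1.56 for mtl-1 and -0.023 to 0.035 for scpl-1. The median interaction of the 140 genes higher on hns food was 0.27 to 0.43 over the alternatives, and that of the 62 lower genes was -0.06 to 0.09. With 2 libraries a group, the median 95% interval of a described gene reached 0.351 to either side of its value.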
